A study of Homo sapiens with 6 samples.

Results

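The cytosolic ribosomal protein genes were followed in HaCaT, a line of immortalised human keratinocytes, with and without knockdown of PSENEN by siRNA. They were chosen by name, from the reference gene name that each assembled transcript carries: RPL or RPS followed by a number, together with RPLP0, RPLP1, RPLP2, RPSA and FAU, leaving out pseudogenes and the RPS6K kinases. The rule found 84 of the 27988 genes named in the files. Of these, 78 are the usual components, 32 of the small subunit (FAU and RPSA included) and 46 of the large subunit, and 6 are paralogs of a more abundant gene (RPL7L1, RPL10L, RPL22L1, RPL26L1, RPL39L and RPS27L). The set was proposed with its TPM in the 2 groups in view, so its differences between the groups are given as a description. The fit over all genes includes them, and its calls among them are counted beside the share of all genes called and support nothing.

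Total RNA was sequenced from 3 libraries of cells given 100 pmol of PSENEN siRNA and from 3 libraries of cells given a mismatch siRNA as control. Cells of both groups were kept in a high-glucose medium containing 10% fetal calf serum and received the siRNA with a lipid reagent. The product of PSENEN is part of γ-secretase, the protease that cuts Notch receptors and other membrane proteins. RNA was taken at 48 and 72 h, and the labels do not say which time was sequenced, nor whether the libraries of a group came from separate cultures. Cells given transfection reagent alone form a further group in the labels that was not analysed here.

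Every ribosome holds, as a rule, 1 copy of most of these proteins, so cells make the proteins in matched amounts. Their mRNAs are short and abundant, and in vertebrates most begin with a C followed by a run of pyrimidines, the 5′ terminal oligopyrimidine (TOP) tract, through which LARP1 and mTOR signalling control their translation. Many of the genes carry small nucleolar RNAs (snoRNAs), which guide the modification of ribosomal RNA, in their introns, and most have given rise to processed pseudogenes.

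Start sites from RefSeq (GRCh38.p14) were available for 68 of the 84 genes. The following windows are shown because they carry the feature that most of the set shares, or lack it; each runs from 10 bases before to 20 bases from an annotated start, and capitals mark the pyrimidine tract that begins at the start with a C.
RPLP1: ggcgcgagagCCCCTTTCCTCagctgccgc
RPS12: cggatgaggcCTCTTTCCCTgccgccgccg
RPS18: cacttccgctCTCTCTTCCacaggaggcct
RPL7A: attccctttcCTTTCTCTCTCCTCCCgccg
RPL39: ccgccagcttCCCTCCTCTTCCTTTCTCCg
RPL41: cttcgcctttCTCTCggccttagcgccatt
RPS15: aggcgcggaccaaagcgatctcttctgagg
RPS4X: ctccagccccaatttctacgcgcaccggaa
The RPLP1 window lies at chr15:69452808-69452837, the RPS12 window at chr6:132814559-132814588 and the RPS18 window at chr6:33272065-33272094, each on the plus strand, and the RPL39 window at chrX:119791611-119791640 on the minus strand. RPL39, whose product lies in the exit tunnel of the large subunit, has the longest tract among the 68 genes at 19 bases, and RPL41 the shortest at 5. RPS15 and RPS4X have no tract at the annotated start, although in both a run of pyrimidines begins a few bases further on.

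A tract of a C and at least 4 further pyrimidines stood exactly at an annotated start in 48 of the 68 genes (70.6%), against 5.14% of the 27305 genes of the table. The same 5 letters lay between 10 bases before and 15 bases after a start in 86.8% of the 68 genes and in 38.4% of all genes. Among words searched on both strands over the 250 bases before and 50 bases after the start, CGGAAG was present in 61.8% of the 68 genes and in 22.6% of all genes. AAGATGG was present in 14.7% and 7.11%. TATAAA was present in 10.3% of the 68 genes and in 14.0% of all genes. These are matches of letters and not sites, and a gene counted once if any of its annotated starts held the word. With the paralogs left out of the 68 genes, 47 usual components with the tract had a median level of 384 TPM. The 16 without it had a median of 299 TPM, a difference that was not tested.

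Annotated snoRNA genes lay inside 28 of the 84 genes (33.3%), against 1.64% of the 11225 protein-coding genes tested, 60 snoRNA genes in all and at most 5 in 1 gene (RPL4 is one such gene). The 84 genes are spread over 21 chromosomes, with 12 of them on chromosome 19. Pseudogenes named after 74 of them were present in the files, 633 in all. Among the 78 usual components, the median share of 31-base words that a gene's transcripts have in common with another annotated gene was 13.2%. The share ran from 2.38% in RPL11 to 46.6% in RPS2, and 19 components were over 20%. Of the paralogs, RPL26L1 (45.2%), RPL7L1 (27.3%) and RPL39L (22.6%) were over 20% as well. Reads from common words could be divided between copies, in these genes most of all.

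Across the libraries PSENEN itself was at 1.75, 2.08 and 1.50 TPM with the PSENEN siRNA and at 6.58, 8.85 and 6.55 TPM with the mismatch siRNA (log2 difference −1.58, SE 0.18, limma adjusted p = 0.0353). The keratinocyte markers KRT5, KRT14, TP63, KRT6A, SFN, DSP and PERP summed to 3551 to 4159 TPM in the PSENEN siRNA libraries and to 5428 to 8591 TPM in the mismatch siRNA libraries. KRT5 and KRT14 made up most of the sum; KRT5, KRT14, TP63, KRT6A and SFN were lower in every PSENEN siRNA library than in any mismatch siRNA library, while DSP and PERP overlapped between the groups. Markers of fibroblasts, melanocytes, leukocytes and endothelial cells summed to at most 5.30 TPM per list in any library. Their part in the results was not tested. The unit of the files is TPM, an abundance per transcript normalised for length and depth, and they hold no read counts. Coverage divided by FPKM gives an estimate of 11.9, 11.3 and 9.16 gigabases in PSENEN siRNA libraries 1 to 3. For mismatch siRNA libraries 1 to 3 the estimates are 15.6, 13.7 and 11.5 gigabases. The files held 181298, 178848 and 167955 transcripts with the PSENEN siRNA and 193153, 190642 and 185198 with the mismatch siRNA, without overlap. The part of depth and assembly in the differences between the groups was not tested.

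Together the 84 genes took 4.29%, 4.41% and 4.35% of all TPM in PSENEN siRNA libraries 1 to 3, and 4.15%, 3.88% and 4.30% in mismatch siRNA libraries 1 to 3. The means were 4.35% ± 0.0638 with the PSENEN siRNA and 4.11% ± 0.214 with the mismatch siRNA (SD, n = 3 each). The ranges overlap slightly, since mismatch siRNA library 3 lies above PSENEN siRNA library 1, and without mismatch siRNA library 2 the difference of 0.244 percentage points was 0.128. The small-subunit genes summed to 17349, 16028 and 17141 TPM with the PSENEN siRNA and to 15606, 14963 and 17018 TPM with the mismatch siRNA. The large-subunit genes summed to 21528, 23686 and 22210 TPM with the PSENEN siRNA and to 21475, 20023 and 20983 TPM with the mismatch siRNA. These sums narrowly did not overlap, but the library totals differ. As shares of library TPM the groups overlapped, with PSENEN siRNA library 1 at 2.37% and mismatch siRNA library 1 at 2.40%. The ratio of small-subunit to large-subunit TPM was 0.751 ± 0.0670 and 0.762 ± 0.0440 (SD, n = 3 each), a difference well inside the spread of either group. In bulk RNA, more cells of a kind and more RNA per cell cannot be told apart.

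**Figure D1:**
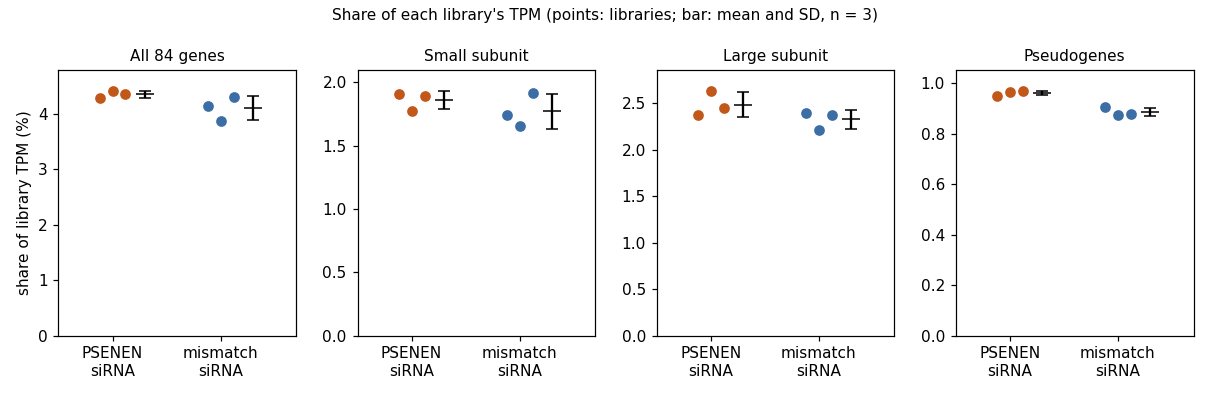
Share of each library's TPM, in percent, taken by all 84 genes, by the small-subunit and large-subunit components and by the ribosomal protein pseudogenes. Points are libraries and the bar is the mean with its SD (n = 3); the groups overlap in the first 3 panels and not in that of the pseudogenes.

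The pseudogenes, whose short transcripts resemble their parents, summed to 8645, 8712 and 8767 TPM with the PSENEN siRNA and to 8103, 7908 and 7789 TPM with the mismatch siRNA. Relative to the 84 genes this is 22.1% ± 0.180 with the PSENEN siRNA and 21.6% ± 1.06 with the mismatch siRNA (SD, n = 3 each). Of the 294 pseudogenes tested, 193 had a positive difference, with a median of 0.11, where 43.6% of all genes were positive with a median of −0.05. Of them 2 passed the test, both higher with the PSENEN siRNA, where 0.153% of all genes were called higher. RPS15AP24 was at 16.9, 19.2 and 17.0 TPM with the PSENEN siRNA and at 0.990, 0.647 and 1.03 TPM with the mismatch siRNA (log2 difference of TPM + 1, 3.31, SE 0.16, limma adjusted p = 0.00073). RPL26P35 was at 8.43, 9.70 and 7.35 TPM with the PSENEN siRNA and at 1.85, 1.63 and 2.65 TPM with the mismatch siRNA (1.65, SE 0.19, limma adjusted p = 0.0353).

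Levels spanned 51.5-fold among the 78 usual components. The mean over 6 libraries ran from 47.4 TPM (RPL37) to 2441 TPM (RPS2) with a median of 373 TPM, 72 components lay above 100 TPM and 6 above 1000 TPM. The top 5, from the highest mean down, were RPS2, RPL7A, RPL23, RPS3 and RPL35, and they held 21.4% ± 0.858 of the TPM of the set with the PSENEN siRNA and 21.4% ± 1.37 with the mismatch siRNA (SD, n = 3 each). RPS2, a protein of the mRNA entry channel, was at 2703, 2402 and 2706 TPM with the PSENEN siRNA and at 2373, 2323 and 2138 TPM with the mismatch siRNA. Every PSENEN siRNA library lay above every mismatch siRNA library, and RPS2 is also the gene with the largest share of common sequence. RPL7A was at 1297, 2323 and 1815 TPM with the PSENEN siRNA and at 1851, 2235 and 1531 TPM with the mismatch siRNA. RPL23 was at 1786, 1361 and 1660 TPM with the PSENEN siRNA and at 1204, 1528 and 1430 TPM with the mismatch siRNA. In both genes the groups overlapped. RPS3, which lies beside RPS2 at the entry of the mRNA channel, was at 1090, 1099 and 1390 TPM with the PSENEN siRNA and at 901, 905 and 1801 TPM with the mismatch siRNA. RPL35 was at 1183, 1236 and 1248 TPM with the PSENEN siRNA and at 1255, 1065 and 1041 TPM with the mismatch siRNA. Here too the groups overlapped, and the ranges over 6 libraries of neighbours in this order overlapped as well.

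**Figure D2:**
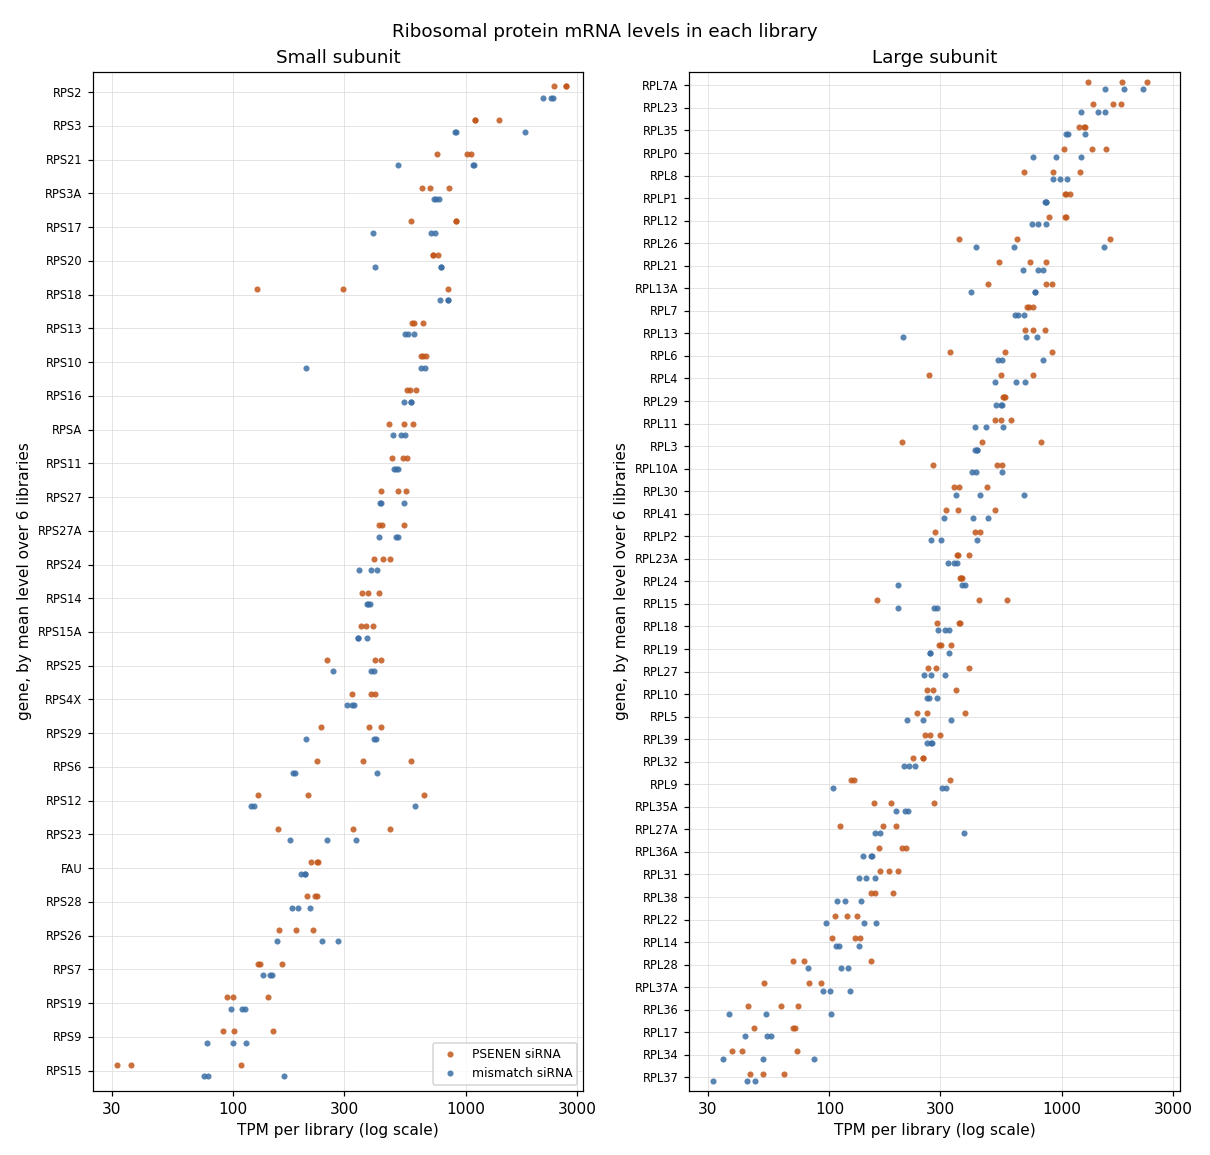
TPM of 75 usual components in each of 6 libraries on a log axis, small subunit on the left and large subunit on the right, ordered by mean level. Each row has 3 points for the PSENEN siRNA above 3 points for the mismatch siRNA; most rows lie between 100 and 1000 TPM, and in rows such as RPS18, RPS12, RPS10, RPL13 and RPL26 1 or 2 libraries stand far from the rest.

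Differences between the groups were small for most genes. Of the 83 genes tested (RPL10L, at 0.171 TPM or less, was not), 57 had a positive log2 difference, PSENEN siRNA minus mismatch siRNA, and 26 a negative one, 68.7% positive against 43.6% of all 16362 genes tested. The median difference was 0.10, with quartiles at −0.04 and 0.22, against a median of −0.05 for all genes. The small-subunit components had 25 of 32 positive with a median of 0.09 and the large-subunit components 29 of 46 positive with a median of 0.11. Without PSENEN siRNA library 3 the median over the 83 genes was 0.06. With limma on log2(TPM + 1) and Benjamini-Hochberg adjustment, 0 of the 83 genes were called at 0.05, where 0.489% of all genes were called (0.153% higher and 0.336% lower). At an unadjusted p under 0.05 there were 6, all higher with the PSENEN siRNA, where 4.63% of all genes were higher and 9.72% lower; since these values chose the set, nothing is read from the counts.

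**Figure D3:**
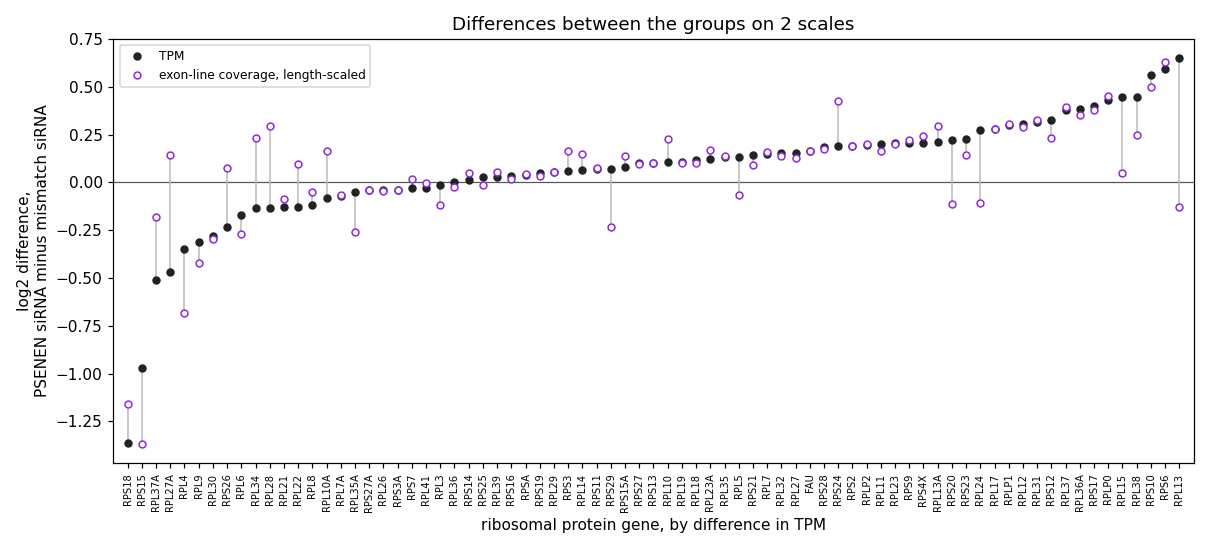
Log2 difference, PSENEN siRNA minus mismatch siRNA, of 75 usual components, ordered by their difference in TPM (filled points); open points give the same difference from exon-line coverage scaled for transcript length. Most filled points lie between −0.25 and 0.50 with RPS18 and RPS15 far below; RPL13, RPL24 and RPL27A are among the genes whose 2 points lie on opposite sides of 0.

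In 11 usual components every PSENEN siRNA library lay above every mismatch siRNA library, where 7.82% of all genes did so. They included FAU and RPS2 in the small subunit and RPL7, RPL12, RPL23A, RPL29, RPL31, RPL36A, RPL38 and RPLP1 in the large subunit. In 1, RPL37A, every PSENEN siRNA library lay below, where 14.3% of all genes did so. RPL37A was at 82.1, 92.0 and 52.4 TPM with the PSENEN siRNA and at 100.5, 122 and 94.0 TPM with the mismatch siRNA, a log2 difference of −0.51 (SE 0.22). Without PSENEN siRNA library 3 the difference was −0.27, and with levels taken from exon-line coverage and scaled for transcript length it was −0.18 with overlapping groups.

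The stalk of the large subunit, built from RPLP0 and the acidic proteins RPLP1 and RPLP2, recruits translation factors to the ribosome. RPLP1 was at 1025, 1039 and 1078 TPM with the PSENEN siRNA and at 851, 849 and 847 TPM with the mismatch siRNA, with a spread of a few percent within each group and a log2 difference of 0.30 (SE 0.08). RPLP0 was at 1538, 1344 and 1023 TPM with the PSENEN siRNA and at 940.5, 753 and 1211 TPM with the mismatch siRNA, and here mismatch siRNA library 3 lay above PSENEN siRNA library 3. RPLP2 was at 444, 423 and 283 TPM with the PSENEN siRNA and at 432, 301 and 272 TPM with the mismatch siRNA, with overlap.

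RPL5 and RPL11 bind a small ribosomal RNA of the large subunit and, outside the ribosome, the p53 regulator MDM2. RPL5 was at 262.5, 238 and 382.5 TPM with the PSENEN siRNA and at 253, 333 and 215 TPM with the mismatch siRNA. RPL11 was at 515, 546 and 602 TPM with the PSENEN siRNA and at 471, 421 and 559 TPM with the mismatch siRNA. Both overlapped between the groups, with log2 differences of 0.13 (SE 0.23) and 0.20 (SE 0.13).

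RPS6 is the target of the S6 kinases, and RPSA also serves as a laminin-binding protein. RPS6 was at 578, 360 and 230 TPM with the PSENEN siRNA and at 181, 184.5 and 415 TPM with the mismatch siRNA, a spread of more than 2-fold inside each group. RPSA was at 469, 544 and 596 TPM with the PSENEN siRNA and at 486, 549 and 525 TPM with the mismatch siRNA. RPS27A and FAU encode a ribosomal protein joined to ubiquitin or a ubiquitin-like protein. RPS27A was at 437, 422 and 540 TPM with the PSENEN siRNA and at 509, 499.5 and 424 TPM with the mismatch siRNA, with overlap. FAU was at 217, 228 and 231 TPM with the PSENEN siRNA and at 196, 203 and 203 TPM with the mismatch siRNA, without overlap and with a log2 difference of 0.17 (SE 0.08).

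RPS14, RPS19 and RPS24 are needed to mature the small-subunit RNA, and loss of 1 copy of RPS19 or RPS24 causes Diamond-Blackfan anaemia. RPS14 was at 357, 379 and 424 TPM with the PSENEN siRNA and at 378, 389 and 379 TPM with the mismatch siRNA. RPS19 was at 100.2, 94.3 and 141 TPM with the PSENEN siRNA and at 109, 113 and 98.2 TPM with the mismatch siRNA. RPS24 was at 471, 440 and 403 TPM with the PSENEN siRNA and at 391, 348 and 414.5 TPM with the mismatch siRNA. All 3 overlapped between the groups.

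The paralogs were scarce beside their relatives, and none had groups that did not overlap. RPL7L1 was at 44.2, 39.5 and 53.6 TPM with the PSENEN siRNA and at 32.9, 39.4 and 43.0 TPM with the mismatch siRNA. RPL22L1, a relative of RPL22, was at 11.8, 13.7 and 14.0 TPM with the PSENEN siRNA and at 22.4, 29.2 and 9.33 TPM with the mismatch siRNA, where mismatch siRNA library 3 lay below all other libraries. RPL26L1 stayed between 17.7 and 26.8 TPM and RPL39L between 16.3 and 18.3 TPM in the 6 libraries. RPS27L, known as a p53 target, was at 2.49, 3.87 and 10.03 TPM with the PSENEN siRNA and at 2.25, 3.33 and 3.78 TPM with the mismatch siRNA, and without PSENEN siRNA library 3 its log2 difference of 0.49 (SE 0.43) was 0.02. The 6 paralogs summed to 101 TPM in each group on average (SD 12.05 with the PSENEN siRNA and 9.97 with the mismatch siRNA).

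The largest differences belonged to genes in which 1 or 2 libraries stood apart. RPS18 was at 836, 298 and 127 TPM with the PSENEN siRNA and at 774, 839 and 837 TPM with the mismatch siRNA, a log2 difference of −1.37 (SE 0.62), so that PSENEN siRNA library 1 lay with the control libraries. Without PSENEN siRNA library 3 the difference was −0.71 and without PSENEN siRNA library 1 it was −2.07. RPS15 was at 107.5, 36.3 and 31.8 TPM with the PSENEN siRNA and at 74.8, 78.0 and 166 TPM with the mismatch siRNA (−0.97, SE 0.52). Without PSENEN siRNA library 1 the difference was −1.52, and without mismatch siRNA library 3 it was −0.60. PSENEN siRNA library 1 again lay within the range of the mismatch siRNA libraries and the other 2 below it. RPL27A was at 193, 170 and 111 TPM with the PSENEN siRNA and at 164, 157 and 379.5 TPM with the mismatch siRNA, and without mismatch siRNA library 3 its difference of −0.47 (SE 0.38) was −0.06. At the other end, RPL13 was at 693, 845 and 752 TPM with the PSENEN siRNA and at 779, 208 and 700.3 TPM with the mismatch siRNA (0.65, SE 0.48). RPS10 was at 653, 645 and 676 TPM with the PSENEN siRNA and at 670, 206 and 642 TPM with the mismatch siRNA (0.56, SE 0.44). In both, mismatch siRNA library 2 was far below the other 5 libraries, and without it the differences were 0.04 and 0.01.

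Such swings inside a group were frequent. The highest library was more than 2-fold above the lowest in 19 of 78 usual components, in 13 with the PSENEN siRNA, in 11 with the mismatch siRNA and in 5 with both. Among genes at 100 TPM or more, 22.2% of 72 components and 11.4% of 526 other protein-coding genes had such a range, with medians of 1.60-fold and 1.34-fold. The reference transcript with the highest TPM was the same in all 6 libraries for 46 components, of which 3 had a range over 2-fold, and changed between libraries for 32, of which 16 did.

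RPS12 shows how a value can swing while most of the gene does not. Its TPM was 659, 128 and 210 with the PSENEN siRNA and 123, 120 and 603 with the mismatch siRNA, so PSENEN siRNA library 1 and mismatch siRNA library 3 stood about 5-fold above the lowest. Coverage of the fourth exon of its main transcript (chr6:132816461-132816563, GRCh38) was 6879, 7676 and 5999 per base with the PSENEN siRNA and 8273, 7125 and 5857 per base with the mismatch siRNA. The last exon (chr6:132817480-132817564) was covered 670, 28.6 and 31.1 times per base with the PSENEN siRNA and 53.0, 29.9 and 612 times per base with the mismatch siRNA. The TPM of the transcript was highest where the last exon was best covered, at 615 in PSENEN siRNA library 1 and 565 in mismatch siRNA library 3. The fourth exon showed no such rise in them. Among the other libraries the TPM did not follow the last exon, with 110 in mismatch siRNA library 1 and 176 in PSENEN siRNA library 3. When the level was taken from the coverage on the exon lines and scaled for transcript length, RPS12 came to 657, 726 and 672 on the TPM scale with the PSENEN siRNA and to 587, 559 and 605 with the mismatch siRNA.

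RPS18 behaved otherwise. The coverage of every exon of its main transcript was low in PSENEN siRNA libraries 2 and 3. The fourth exon (chr6:33275965-33276066) was covered 7102, 1843 and 3.70 times per base with the PSENEN siRNA and 7958, 7791 and 6537 times per base with the mismatch siRNA. In PSENEN siRNA library 3 the remaining RPS18 level lay on other transcripts of the gene, among them a retained-intron transcript of 996 bases at 39.3 TPM that was at or below 0.00123 TPM in the other 5 libraries. Assembled transcripts held 37.6% of the gene's TPM in that library and none in the other 5. On the rescaled values RPS18 came to 878, 368 and 179 with the PSENEN siRNA and to 823, 884 and 892.5 with the mismatch siRNA, still with libraries 2 and 3 of the PSENEN siRNA below all others.

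**Figure D4:**
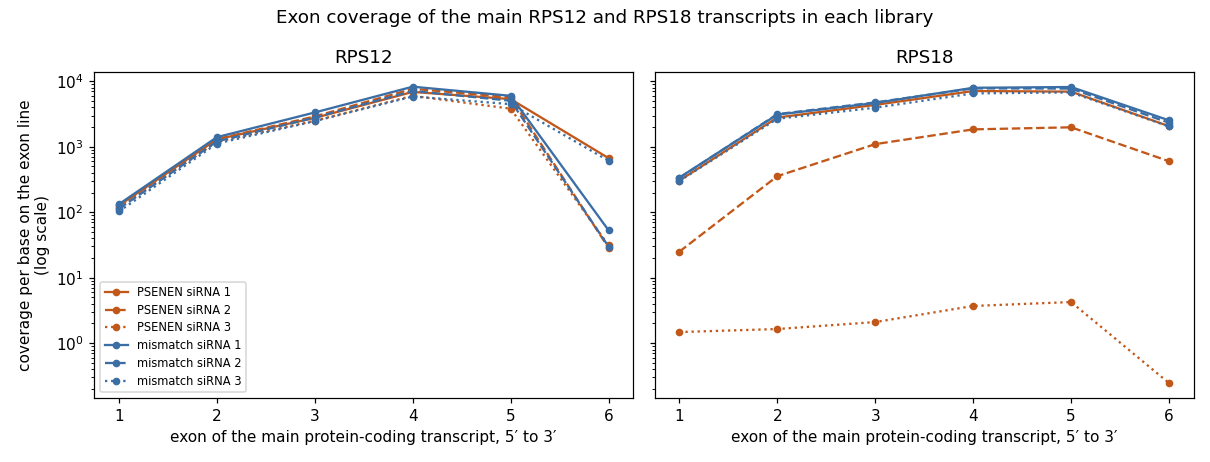
Coverage per base, on a log axis, of the 6 exons of the main RPS12 and RPS18 transcripts in each library, not corrected for depth. The RPS12 lines run together except at exon 6, where PSENEN siRNA library 1 and mismatch siRNA library 3 stay at 670 and 612; the RPS18 lines of PSENEN siRNA libraries 2 and 3 lie below the others at every exon.

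The transcripts reported for a gene also differed in length between libraries. RPL13, in mismatch siRNA library 2, had 83.5 and 88.4 TPM on reference transcripts of 4498 and 2385 bases that were at 0 in the other 5 libraries. With each transcript weighted by its length, that library came to 757 on the TPM scale against 514 to 755 in the other 5 libraries. RPS10 kept its low value in mismatch siRNA library 2 on the rescaled values, at 234 against 647 to 685 in the other 5 libraries. Its transcripts have 37.5% of their 31-base words in common with another annotated gene. Assembled transcripts with introns of more than 1 gene are left out on every scale. Whether the low value reflects such transcripts was not tested.

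With both corrections, chosen after the data were seen, 14 usual components had a range over 2-fold in a group instead of 19, and the median of the larger range was 1.34 instead of 1.61. The rescaled sum of the 84 genes was 38994, 41429 and 40745 with the PSENEN siRNA and 38124, 37627 and 37642 with the mismatch siRNA, without overlap. This is a sum and not a share of the library, and shares were not taken on this scale. The number with a positive difference was again 57 of 83, with a median of 0.10 against −0.06 for all genes. The difference was positive on both scales in 47 usual components and negative on both in 16, and it changed sign in the other 15, 7 of which were positive in TPM. In 17 usual components every PSENEN siRNA library lay above every mismatch siRNA library, where 7.72% of all genes did so, and in 2 (RPL24 and RPS20) every one lay below, where 15.4% did so. Of the 11 that lay above in TPM, 10 did so here as well, all but RPL38. The 7 others included RPL10, RPL28, RPL34, RPS12, RPS24 and RPS28.

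**Figure D5:**
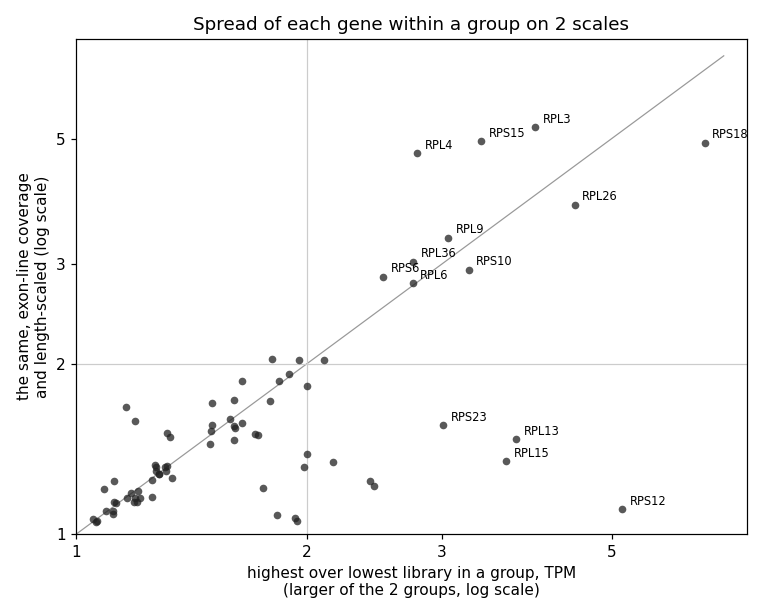
Highest library divided by lowest library within a group, the larger of the 2 groups, for 75 usual components, in TPM (x) and in exon-line coverage scaled for transcript length (y), both on log axes. Grey lines mark 2-fold and equality; RPS12, RPL15, RPL13 and RPS23 drop below 2-fold on the rescaled values, while RPS18, RPL26, RPL3, RPS15 and RPL4 stay above it.

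On these rescaled values limma called 1 gene of the set, where 0.766% of all genes were called, and with length scaling alone it called 1, where 0.71% of all genes were called.

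Some genes kept wide ranges on every scale. RPL26, at the exit of the peptide tunnel, was at 361, 1612 and 639 TPM with the PSENEN siRNA and at 1517, 424 and 623 TPM with the mismatch siRNA, and at 384, 1465 and 756 with the PSENEN siRNA and 1392, 457 and 731 with the mismatch siRNA on the rescaled values. High and low libraries were thus found in both groups. RPL3, a protein that reaches towards the catalytic centre, was at 205, 454 and 812 TPM with the PSENEN siRNA, while the mismatch siRNA libraries were at 429, 423 and 431 TPM. By contrast, RPL29 was at 559, 560.0 and 569.8 TPM with the PSENEN siRNA and at 547.5, 554 and 522 TPM with the mismatch siRNA.

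Genes that serve the same process were counted from lists chosen with knowledge of earlier results, and gave few calls. Ribosomal proteins outside the name rule included RACK1, a scaffold on the small subunit, and RPL36AL. RACK1 was at 346, 399 and 561 TPM with the PSENEN siRNA and at 218, 417 and 340 TPM with the mismatch siRNA. Its groups overlapped. RPL36AL, a copy of RPL36A, was at 65.8, 66.7 and 60.7 TPM with the PSENEN siRNA and at 74.5, 75.5 and 70.2 TPM with the mismatch siRNA, below in every library, with a log2 difference of −0.19 (SE 0.09) that did not pass the test.

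Other mRNAs with a TOP tract, mostly translation factors, had 9 of 15 positive differences and a median of 0.14, where 43.6% of all genes were positive with a median of −0.05. There were 0 calls with limma, where 0.489% of all genes were called, and 4 genes at an unadjusted p under 0.05, all higher, where 4.63% of all genes were higher. EEF2, the factor that moves the ribosome along the mRNA, was at 881, 865 and 873 TPM with the PSENEN siRNA and at 626, 646 and 665 TPM with the mismatch siRNA (log2 difference 0.43, SE 0.08, limma adjusted p = 0.0848). EIF4B, a helper of the helicase that opens mRNAs for initiation, was at 269, 271 and 276 TPM with the PSENEN siRNA and at 205, 146 and 159.7 TPM with the mismatch siRNA (0.69, SE 0.14, limma adjusted p = 0.107). Both missed the threshold, though their groups did not overlap. EEF1A1, which brings aminoacyl-tRNA to the ribosome and is the most abundant of the list, was at 3661, 2975 and 3771 TPM with the PSENEN siRNA and at 2890, 3368 and 1921 TPM with the mismatch siRNA, with overlap.

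Host genes of snoRNAs that encode no protein had 11 of 12 positive differences and a median of 0.29, against 43.6% positive and a median of −0.05 for all genes. Limma gave 0 calls, and 4 genes had an unadjusted p under 0.05, all higher, where 4.63% of all genes were higher and 9.72% lower. ZFAS1 was at 69.0, 100.4 and 56.8 TPM with the PSENEN siRNA and at 37.5, 42.4 and 38.6 TPM with the mismatch siRNA (0.88, SE 0.21, limma adjusted p = 0.144). SNHG16 was at 88.3, 89.5 and 97.7 TPM with the PSENEN siRNA and at 65.5, 57.6 and 48.9 TPM with the mismatch siRNA (0.68, SE 0.13, limma adjusted p = 0.0951). The most abundant of the list, LRRC75A-AS1, was at 666, 429 and 517 TPM with the PSENEN siRNA and at 555, 385 and 494 TPM with the mismatch siRNA, with overlap. ZFAS1 and SNHG16 were chosen after their values were seen, as were EEF2 and EIF4B.

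The machinery that builds ribosomes gave 0 calls with limma (1 gene higher and 6 lower at an unadjusted p under 0.05, where 4.63% of all genes were higher and 9.72% lower). The medians of its 5 lists, −0.07 to −0.12, lay near the median of −0.05 for all genes. RNA polymerase I and its factors had 6 of 15 positive differences (median −0.07), the small-subunit processome and snoRNA proteins 10 of 26 (−0.09), large-subunit assembly 8 of 26 (−0.11), late maturation and export 5 of 15 (−0.07) and the dedicated chaperones of ribosomal proteins 0 of 7 (−0.12). Their most abundant members included NCL (nucleolin), a nucleolar protein, which was at 256, 295 and 247 TPM with the PSENEN siRNA and at 312, 380.0 and 227 TPM with the mismatch siRNA. EBNA1BP2, a large-subunit assembly factor, was at 59.6, 67.5 and 66.0 TPM with the PSENEN siRNA and at 78.9, 82.2 and 58.4 TPM with the mismatch siRNA. XPO1, the exporter of both subunits, was at 144, 145.5 and 156 TPM with the PSENEN siRNA and at 176, 157 and 139.8 TPM with the mismatch siRNA. In these 3 genes the groups overlapped, as they did in BCCIP, whose counterpart in budding yeast is a chaperone of the RPL23 protein, at 46.1 to 50.5 TPM with the PSENEN siRNA and 46.7 to 57.1 TPM with the mismatch siRNA. POLR1D, a subunit shared by RNA polymerases I and III, was at 61.4, 74.9 and 72.5 TPM with the PSENEN siRNA and at 21.0, 17.7 and 72.9 TPM with the mismatch siRNA, with overlap. Its log2 difference of 1.17 (SE 0.50, limma adjusted p = 0.357) did not pass the test. Of the 6 fits that left out 1 library each, it passed in the one without mismatch siRNA library 3, at 1.79; that library is the one that lay with the PSENEN siRNA libraries.

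Among 11 regulators of TOP mRNAs and of ribosomal protein synthesis, 7 had positive differences (median 0.12), where 43.6% of all genes were positive, and 1 passed the test, where 0.489% of all genes were called. EIF4EBP2, an inhibitor of the cap-binding protein EIF4E that mTOR signalling relieves, rose to 43.0, 43.5 and 43.3 TPM with the PSENEN siRNA, against 17.2, 20.04 and 18.8 TPM with the mismatch siRNA (log2 difference 1.17, SE 0.10, limma adjusted p = 0.0186). Its call was lost with any 1 library left out, at log2 differences of 1.12 to 1.22. LARP1, the protein that binds TOP tracts, was at 261, 225 and 241 TPM with the PSENEN siRNA and at 287, 263 and 124 TPM with the mismatch siRNA. MTOR was at 24.5, 26.9 and 27.2 TPM with the PSENEN siRNA and at 23.9, 24.3 and 23.1 TPM with the mismatch siRNA, and its log2 difference of 0.13 (SE 0.10) did not pass the test. MYC, a transcription factor that drives ribosome production, overlapped between the groups at 52.2 to 68.2 TPM with the PSENEN siRNA and 54.4 to 70.0 TPM with the mismatch siRNA.

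The set was also split by features that did not enter its choice. The 47 usual components with a TOP tract at an annotated start had 34 positive differences with a median of 0.10, and the 16 without it had 8 with a median of 0.03. The 28 with a snoRNA gene inside had a median level of 521 TPM and 20 positive differences with a median of 0.11, and the 50 without had 344 TPM and 34 positive with a median of 0.09, close to each other in the difference. These are descriptions of overlapping subsets of the set and were not tested.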

How the data were processed

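Each deposited file is a StringTie assembly of 1 library, per the file headers, and the values the authors deposited on its transcript lines are TPM, FPKM and coverage per base; exon lines hold coverage. An aligner, a StringTie version, strandedness and read length were not given in the sources used here. Bowtie 0.12.2 and 2 builds of the mouse genome (mm8, mm9) stand in the submitters' processing notes, although the libraries are human. Of 92263 named reference transcripts found in GENCODE 29 (GRCh38), 98.4% had the same position. Library TPM summed to 886394 to 909066 and were left as deposited.

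A gene's TPM was summed over its reference transcripts plus the assembled transcripts whose annotated introns belong to that gene alone. Reference transcripts held 66.4% to 68.6% of library TPM. Those assembled transcripts held 5.09% to 5.44% with the PSENEN siRNA and 5.61% to 6.33% with the mismatch siRNA. The rest entered no gene. The 16362 genes that reached 1 TPM in 3 or more of the 6 libraries were fitted in limma 3.58.1 under R 4.3.3, on log2(TPM + 1), with an intensity trend and no term but group (residual degrees of freedom, 4). A gene was called when its p, adjusted by Benjamini-Hochberg, was under 0.05. Fold changes of low genes are understated on that scale. Nothing says that libraries come from separate cultures, so the p-values reflect a spread that may be technical. The procedure was tested on simulated data with the same noise for every gene and large changes. That setting differs from the wide ranges and small differences seen here, so the test says nothing on them.

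Rescaled values, added after the data were seen, took each transcript's level from the length-weighted coverage of its exon lines, or weighted it by its length over a fixed mean length of the gene, or both. The ribosomal protein genes and the related lists were chosen with earlier results of these data known. Named genes were the 5 most abundant members, the 5 largest differences in each direction, members with a known special role, the paralogs and, per list, the called genes or else the most abundant; other genes named were chosen after their values were seen. Some genes are not reported here and are not drawn, though they stay in every count and sum. Alternatives were other pseudocounts and filters, FPKM, reference transcripts only, 2 other normalizations, rescaling without the set, pseudogenes added to their parents, no trend, the replicate block and each library left out. Python 3.11.15 with pandas 2.3.3, NumPy 2.4.6 and matplotlib 3.10.9 was used. With no read counts, no counting intervals are given.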

Additional observations from a re-analysis of the deposited data

How the results depend on the processing

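The median log2 difference of the ribosomal protein genes stayed positive in every alternative run, between 0.06 (without PSENEN siRNA library 3) and 0.17 (FPKM), and lay 0.11 to 0.17 above the median of all genes. Their share of TPM stayed higher with the PSENEN siRNA, by 0.128 to 0.338 percentage points with 1 library left out. Every run reuses the libraries whose values chose the set, so neither result is support. No ribosomal protein gene was called in TPM under any alternative except 1 when levels were length-scaled, and the same number with exon-line coverage and length scaling together. Over all genes, 80 were called in TPM (25 higher, 55 lower), 125 with exon-line coverage and length scaling, and 9 to 12 with 1 library left out. Genes of the related lists numbered 3 called, 0 with the replicate block, and 1 to 2 with 1 library left out. With pseudogenes added to their parents the number was 1, because the 2 called pseudogenes were then no longer genes of their own. The deviations of same-numbered libraries, over all genes tested, correlated at −0.06, 0.00 and −0.02, which does not exclude a pairing. With the replicate number as a block, which leaves fewer residual degrees of freedom, 4 genes were called over all. RPL26P35 was not called without a filter on low values, with the block or with any 1 library left out. RPS15AP24 and EIF4EBP2 were not called with the block, and RPS15AP24 was called with each library left out. The cause was not tested in any of these. Without counts, the precision that depth sets cannot be given, and with 3 libraries a group a single library moved many of the values above.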
